A study of Mus musculus with 6 samples.

Results

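The genes described here make cyclic AMP (cAMP), break it down or carry its signal in pancreatic islets. They are 10 named mouse genes: the adenylyl cyclases Adcy3, Adcy5, Adcy6 and Adcy8, the phosphodiesterases Pde1c, Pde3b and Pde8b, and the effectors Prkaca, Rapgef4 and Creb1. Each was found by its symbol among the 56980 Ensembl gene IDs of the count table, and all 10 were among the 18558 genes with enough counts to be tested. They were chosen by name for their place in the pathway, with earlier results of these data known.

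Adenylyl cyclases convert ATP to cAMP when stimulatory G proteins activate them, and phosphodiesterases hydrolyse it. In beta cells, incretin hormones raise cAMP through their receptors, which strengthens insulin secretion when glucose is high. The signal is carried by protein kinase A (PKA) and by the exchange factor EPAC2, and it reaches the nucleus through the transcription factor CREB.

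RNA of islets from mice aged 14 weeks was sequenced in 3 control and 3 knockout libraries. Controls had the genotype SSBP3F/F, with both Ssbp3 alleles floxed. Knockouts had SSBP3F/F; MIP-CreER, so they carried the same floxed alleles and an inducible Cre driven by the mouse insulin promoter. The controls lacked the Cre, and no library here had the Cre without floxed alleles, so effects of the transgene and of the lost gene cannot be told apart. The labels give neither tamoxifen treatment nor whether a library holds 1 animal or a pool, so p-values measure only the spread between libraries. SSBP3 is a partner of the LIM-domain cofactor LDB1, and the series concerns what this co-regulator does for blood glucose, islet structure and the identity of beta cells.

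Totals ran from 14907641 to 225428920 counts, with a shallow library in each group (control 1 and knockout 1). All 10 genes had at least 12 counts in every library. Values are CPM, counts scaled to a common library size, with library sizes adjusted by TMM, a method that balances most genes between libraries. Ssbp3 itself measured 65.8, 81.3 and 74.2 CPM in the controls and 52.3, 58.1 and 57.1 CPM in the knockouts, with no overlap, and it missed the threshold (-0.40 on the log2 scale, adjusted p by edgeR 0.0581; 0.00646 to 0.283 over 16 alternatives, called in 6). The part of the gene that was deleted is not given, so whole-gene counts do not measure recombination. Markers fixed for beta cells were abundant in all libraries, with a summed level of 188610 to 243691 CPM in controls and 141638 to 159322 CPM in knockouts. Of the 9 beta-cell markers, 3 fell (Mafa, Ucn3 and G6pc2), 0 rose and none was at 0. Over all genes tested 3.35% fell and 3.72% rose. In 7 of the 9 every knockout was lower than any control, against 14.1% of all genes tested. Ins1, Ins2 and Iapp, which make up most of the sum, were lower in every knockout than in any control and were not called. Acinar markers summed to 31993 to 64234 CPM in controls and 25120 to 86388 CPM in knockouts, so exocrine RNA was present in both groups. In bulk islets, fewer cells of a type and less RNA per cell cannot be told apart.

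A gene is called when its edgeR quasi-likelihood p, adjusted over all genes tested, is under 0.05. By that rule 1 of the 10 genes fell, Pde1c, and 0 rose. Over all genes tested 3.35% fell and 3.72% rose, so the share of called genes here is near the background. The median log2 fold change of the 10 genes was 0.05, and over all genes it was 0.00. At an unadjusted p under 0.05 stood 2 of the 10, Pde1c and Pde3b, against 21.6% of all genes tested. Pde1c was also the sole gene of the 10 whose groups did not overlap, a separation that 28.0% of all genes tested showed in either direction.

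**Figure D1:**
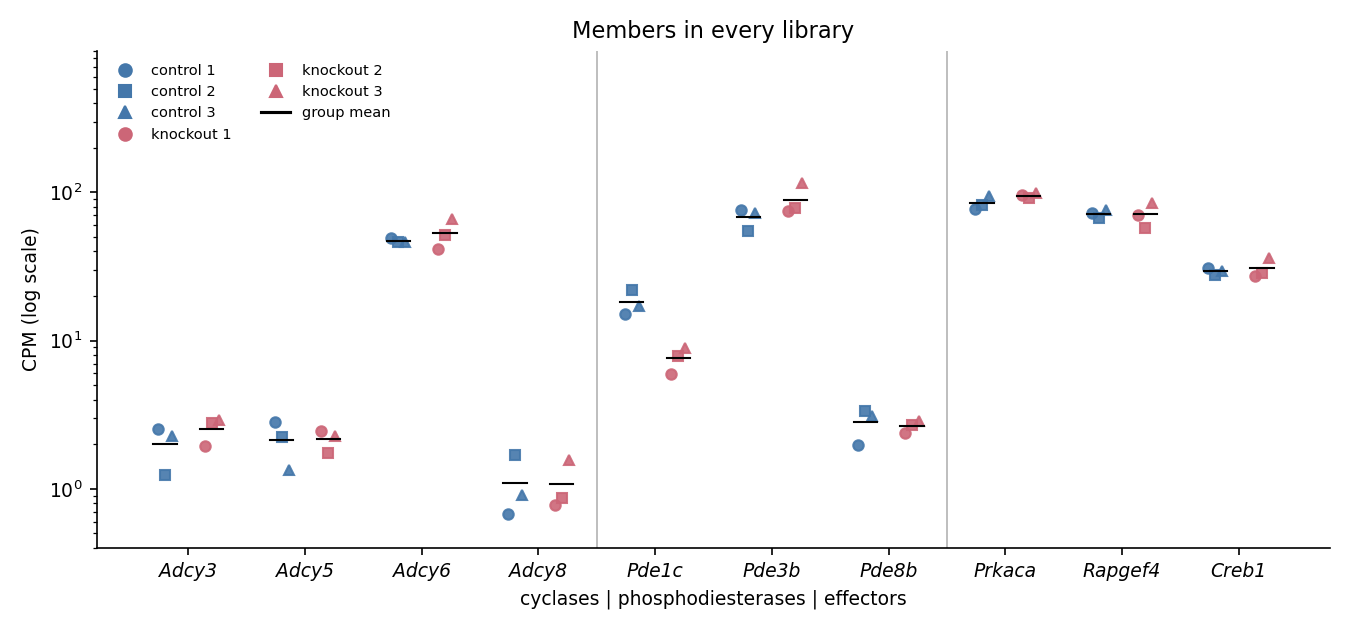
CPM of the 10 genes in each of the 6 libraries on a log axis, with controls in blue, knockouts in red and a black line at each group mean. Pde1c is the gene whose red points (5.95 to 8.98 CPM) all lie under its blue points (15.2 to 22.0 CPM).

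Pde1c (ENSMUSG00000004347) encodes a phosphodiesterase that calcium and calmodulin activate and that cleaves both cAMP and cGMP. The controls stood at 15.2, 22.0 and 17.0 CPM and the knockouts at 5.95, 7.88 and 8.98 CPM. The highest knockout library thus stood well under the lowest control library. The mean went from 18.1 ± 3.54 to 7.60 ± 1.53 CPM (SD, n = 3), a log2 fold change of -1.24 (SE 0.202, 95% interval -1.67 to -0.80), or 2.36-fold lower (edgeR adjusted p = 0.00334). Its p ranked 226 among the genes tested. The call held in 15 of 16 alternatives and with each library left out in turn. It ended without control 1 and knockout 1 together (log2 fold change -1.21, edgeR adjusted p = 0.0618; 9.42e-08 to 0.0618 over the 16 alternatives). The summed beta-cell markers were lower in the same libraries, as given above, and their part in the Pde1c result was not tested.

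Of the 3 transcription starts of Pde1c in the RefSeq promoter table (GRCm38.p6), the windows upstream of 2 overlap no annotated exon. They are shown because Pde1c is the one called gene of the 10. The first covers chr6:56369635-56369884 and the second chr6:56362811-56363060, both on the minus strand and both the 250 bases before the start. Capitals would mark TGACG, the half-site of the cAMP response element that CREB binds, on either strand. Neither window holds it, and neither holds the core TAATTA that LIM-homeodomain factors can bind.
Pde1c upstream start: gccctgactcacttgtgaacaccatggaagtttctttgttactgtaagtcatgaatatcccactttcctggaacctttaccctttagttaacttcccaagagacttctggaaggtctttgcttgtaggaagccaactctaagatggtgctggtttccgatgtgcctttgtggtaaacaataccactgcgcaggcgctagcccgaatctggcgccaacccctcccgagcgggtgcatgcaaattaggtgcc
Pde1c downstream start: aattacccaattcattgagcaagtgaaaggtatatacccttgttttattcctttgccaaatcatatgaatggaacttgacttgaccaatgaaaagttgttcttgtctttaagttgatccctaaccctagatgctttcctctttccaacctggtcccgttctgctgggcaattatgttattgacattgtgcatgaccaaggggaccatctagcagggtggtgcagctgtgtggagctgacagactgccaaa
The first window has 7 CpG dinucleotides and a GC content of 49.6%, and the second has 1 CpG and 42.8% GC. A match or its lack describes these letters only. Over the 32851 promoter windows of this length in the table, 17.8% hold TGACG or its reverse complement, 1.55% hold the full element TGACGTCA, and 4.84% hold TAATTA.

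Pde3b (ENSMUSG00000030671) encodes a phosphodiesterase that insulin activates and that limits cAMP in beta cells and fat cells. Its levels were 76.2, 54.9 and 71.9 CPM in controls and 74.5, 78.3 and 115.1 CPM in knockouts. Knockout 3 stood apart at the top, and the other knockout libraries lay close to control 1. The log2 fold change was 0.40 (SE 0.176, 95% interval 0.02 to 0.79), and the adjusted p by edgeR was 0.206, over the threshold. It was called higher without a filter on low counts and with an acinar covariate (adjusted p 0.0324 and 0.0391; 0.0324 to 0.577 over 16 alternatives), and without knockout 3 the log2 fold change was 0.18.

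Pde8b (ENSMUSG00000021684), of a family with high affinity for cAMP, measured 1.98, 3.33 and 3.11 CPM in controls and 2.39, 2.696 and 2.85 CPM in knockouts. All knockout values lay inside the control range (log2 fold change -0.10, 95% interval -0.76 to 0.57, edgeR adjusted p = 0.895). The interval leaves room for a change of the size of the Pde3b difference in either direction.

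Adcy6 (ENSMUSG00000022994), a cyclase that calcium inhibits, was the most abundant of the 4 cyclases. It measured 49.0, 46.2 and 46.3 CPM in controls and 41.4, 51.5 and 66.1 CPM in knockouts. The controls were tight, while the knockouts spread on both sides of them. Its log2 fold change was 0.17 (SE 0.153, 95% interval -0.16 to 0.51, edgeR adjusted p = 0.568), so a rise or fall of 2-fold lies outside the interval.

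Adcy5 (ENSMUSG00000022840), which calcium also inhibits and which lies near a variant region tied to type 2 diabetes in people, was low. It measured 2.82, 2.23 and 1.33 CPM in controls and 2.46, 1.75 and 2.26 CPM in knockouts, with full overlap (log2 fold change 0.03, 95% interval -0.77 to 0.84, edgeR adjusted p = 0.972). Adcy3 (ENSMUSG00000020654), a cyclase of primary cilia, measured 2.54, 1.24 and 2.26 CPM in controls and 1.94, 2.80 and 2.91 CPM in knockouts. Knockout 2 and 3 exceeded every control but knockout 1 did not (log2 fold change 0.38, 95% interval -0.41 to 1.16, edgeR adjusted p = 0.610). Of the annotated exon bases of Adcy3, 22.1% lie over Cenpo on the opposite strand, so without a stated strand setting its counts may include reads of that gene.

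Adcy8 (ENSMUSG00000022376), a cyclase that calcium and calmodulin stimulate, was the lowest of the 10 genes. Its counts were 12, 136 and 202 in controls and 12, 70 and 166 in knockouts, or 0.677, 1.69 and 0.911 CPM and 0.776, 0.874 and 1.57 CPM. The groups covered nearly the same range (log2 fold change -0.02, SE 0.494, edgeR adjusted p = 0.986). With a 95% interval of -1.09 to 1.05, the data leave room for a 2-fold change either way.

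Prkaca (ENSMUSG00000005469), which encodes the catalytic subunit alpha of PKA, measured 76.9, 82.5 and 93.8 CPM in controls and 95.6, 91.5 and 98.1 CPM in knockouts. Control 3 fell among the knockouts, and the other controls lay under them (log2 fold change 0.17, SE 0.112, 95% interval -0.07 to 0.41, edgeR adjusted p = 0.425). Rapgef4 (ENSMUSG00000049044), the gene of EPAC2, measured 72.4, 67.5 and 75.6 CPM in controls and 70.7, 57.8 and 84.4 CPM in knockouts. The knockouts enclosed the control range (log2 fold change -0.02, 95% interval -0.32 to 0.28, edgeR adjusted p = 0.961). Creb1 (ENSMUSG00000025958), the gene of CREB, measured 30.8, 27.7 and 29.4 CPM in controls and 27.2, 28.5 and 36.2 CPM in knockouts, again on both sides of the controls (0.07, 95% interval -0.24 to 0.37, edgeR adjusted p = 0.832). For these 3 effectors a 2-fold change lies outside the 95% interval.

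**Figure D2:**
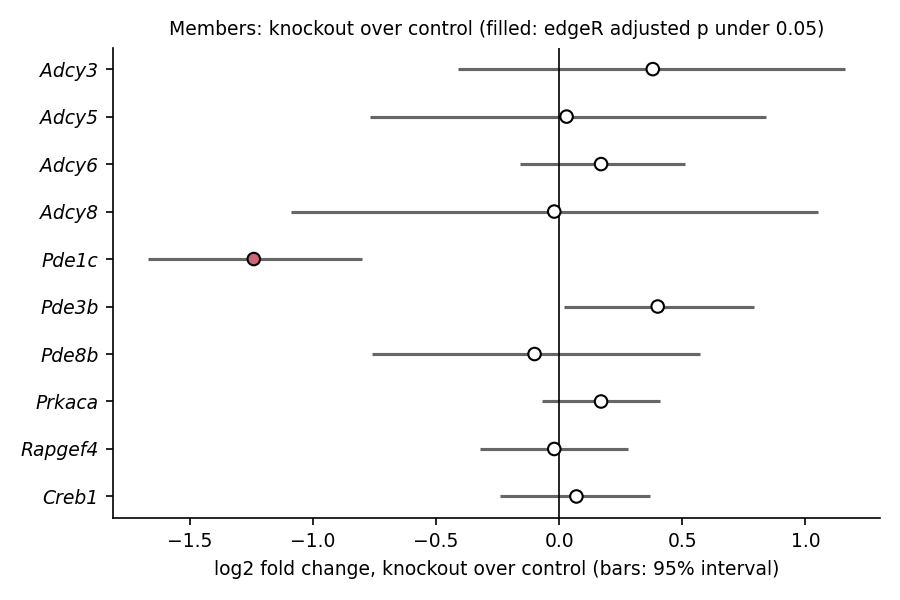
Log2 fold changes of the 10 genes, knockout over control, as points with bars for the 95% interval, filled where called by edgeR. The bar of Pde1c runs from -1.67 to -0.80, and the widest bar is that of Adcy8, from -1.09 to 1.05.

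The sign of some small differences depended on the processing. Over the alternatives the log2 fold change took the other sign 5 times for Adcy5, 5 for Adcy8, 4 for Rapgef4, 2 for Creb1 and 1 each for Adcy6 and Pde8b, and none of these was called. Adcy3, Pde1c, Pde3b and Prkaca kept their sign in all alternatives run. Exon length and log2 fold change were related over 18113 genes (Spearman's rho 0.212), a correlation across genes that share libraries and are no replicates. Of the 10 genes, 9 were longer than the median gene tested, and with length and GC offsets their median log2 fold change was -0.07 and that of Pde1c was -1.41.

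Levels can be compared between genes only per length, here as CPM per kb of annotated exon, where long rare exons make a gene look lower. On this scale Prkaca led with 33.9 ± 3.46 in controls and 38.2 ± 1.35 in knockouts (SD, n = 3). Rapgef4 (10.8 ± 0.609 in controls), Pde3b (7.43 ± 1.23) and Adcy6 (6.96 ± 0.239) followed, then Creb1 at 2.13 ± 0.112. Pde1c stood at 0.901 ± 0.177 in controls and 0.379 ± 0.0763 in knockouts, and Pde8b at 0.477 ± 0.124, Adcy3 at 0.322 ± 0.109, Adcy5 at 0.296 ± 0.104 and Adcy8 at 0.134 ± 0.0652 in controls. Prkaca exceeded Rapgef4 in 6 of 6 libraries by at least 2.85-fold, and Adcy6 exceeded Creb1 by at least 3.09-fold. Pde3b and Adcy6 kept their order in 5 of 6 libraries, Pde8b and Adcy3 in 5, Adcy3 and Adcy5 in 4, and Pde1c and Pde8b in 3. In the last pair the 3 controls had more Pde1c and the 3 knockouts had less.

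Within the 10 listed cyclases, Adcy6 took 62.5% ± 1.62 of the summed CPM per kb in controls and 57.8% ± 1.82 in knockouts (SD, n = 3). The 2 next were not among the genes chosen here. Adcy9 took 17.5% ± 4.98 and 26.4% ± 4.51, and Adcy4 7.63% and 6.07%. Adcy3, Adcy5 and Adcy8 were minor, at 2.87%, 2.65% and 1.22% in controls. Among 16 cAMP phosphodiesterases, Pde3b took 32.4% ± 4.55 and 33.9% ± 5.96, Pde8a 27.6% ± 6.58 and 35.1% ± 9.79, and Pde4b 14.4% ± 1.13 and 11.8% ± 1.51. Pde1c went from 4.03% ± 1.33 to 1.32% ± 0.221, and Pde7b from 0.619% ± 0.325 to 2.68% ± 0.401. Summed cyclase over summed phosphodiesterase CPM had a log2 ratio of -1.43 ± 0.15 in controls and -1.41 ± 0.14 in knockouts. The difference of 0.03 did not pass a two-sided exact permutation test (p = 0.700), for which 3 against 3 libraries allow no p under 0.1.

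**Figure D3:**
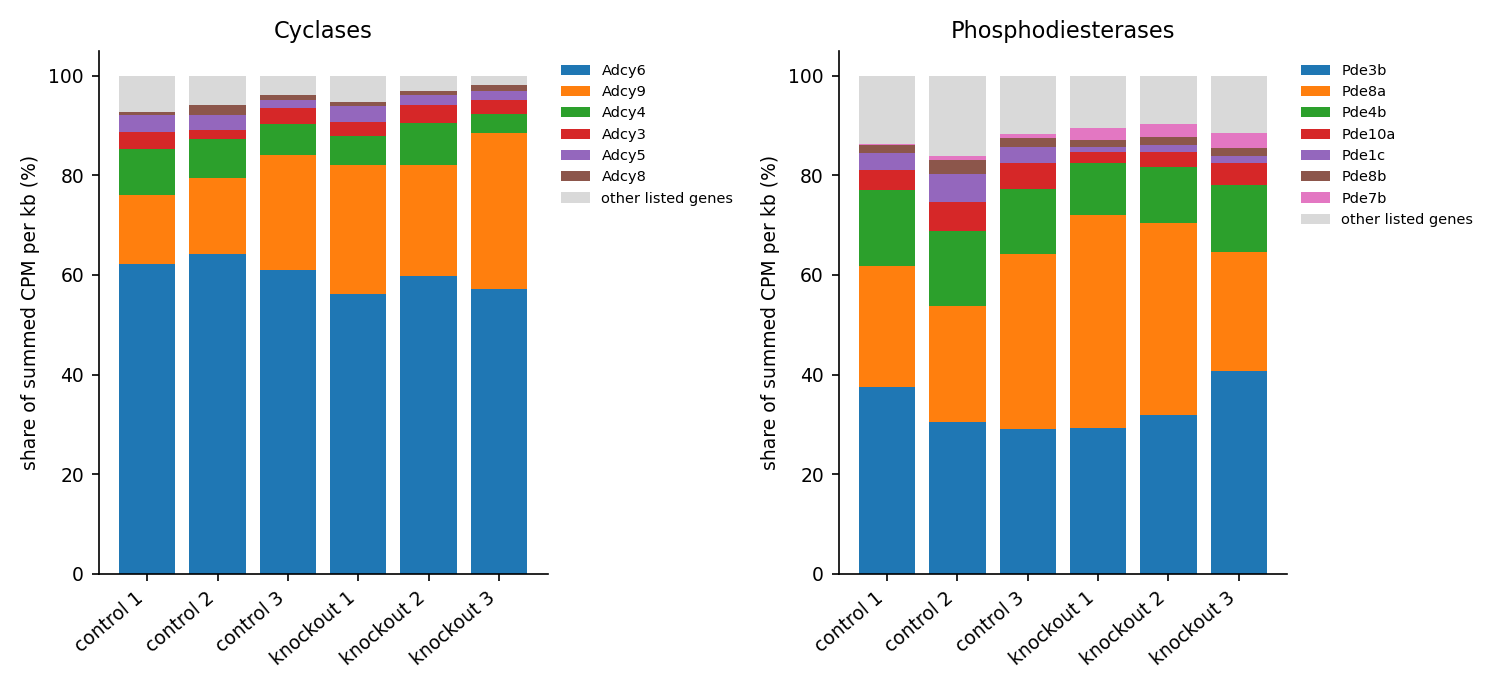
Share of the summed CPM per kb taken by each gene within the cyclases (left) and the cAMP phosphodiesterases (right), 1 bar for each library, with the remaining listed genes in grey. Adcy6 is the largest share in the left panel in all 6 libraries, and the Pde1c band is thinner in the knockout bars (1.06% to 1.45%) than in the control bars (3.13% to 5.56%).

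The other genes of the pathway were taken from 9 lists, and 82 of their 88 genes were tested. Of the 82, 5 rose and 6 fell, with a median log2 fold change of 0.12. With a library left out, the counts of higher and lower genes were 1 and 4 without control 1, 2 and 3 without control 2, and 7 and 6 without control 3. They were 2 and 2 without knockout 1, 3 and 4 without knockout 2, and 5 and 7 without knockout 3. Without both shallow libraries 1 rose and 1 fell. Calls over all genes also dropped without both shallow libraries, to 76 higher and 48 lower from 691 and 621. With each library left out in turn, calls over all genes were 295 to 719 higher and 224 to 590 lower. They were lowest without control 2 and highest without control 3. With all 6 libraries, the background of called genes was 7.07% in either direction (3.72% higher and 3.35% lower).

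In the breakdown arm, Pde7b, a cAMP-specific phosphodiesterase, rose while Pde1c fell. It measured 0.677, 1.94 and 2.79 CPM in controls and 8.02, 8.85 and 12.0 CPM in knockouts, with no overlap. The log2 fold change was 2.33 (SE 0.376, edgeR adjusted p = 0.00407), a 5.01-fold rise that was called in 16 of 16 alternatives (adjusted p 9.50e-15 to 0.0433). No other of the 11 phosphodiesterases tested outside the chosen genes was called, and Pde4b, the most abundant of these by mean CPM over the 6 libraries although Pde8a exceeded it in 3 of them, had a log2 fold change of 0.05. Pde8a had the smallest p of these (0.59, adjusted p by edgeR 0.296), with overlap. In the synthesis arm 0 of 5 further cyclases were called by edgeR. An unadjusted p under 0.05 was reached by 2 of them, against 21.6% of all genes tested. Adcy9 went from 10.1 ± 2.92 to 18.9 ± 7.52 CPM, higher in 3 of 3 knockouts than in any control (log2 fold change 0.90, edgeR adjusted p = 0.0826). It was called in 4 of 16 alternatives, DESeq2 among them (adjusted p 7.10e-05 to 0.305).

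Around PKA, 1 of 8 genes tested rose, Pkib, which encodes an inhibitor of the catalytic subunit. Over all genes tested 3.72% rose. Pkib measured 6.89, 6.57 and 7.53 CPM in controls and 15.5, 11.6 and 10.8 CPM in knockouts (log2 fold change 0.84, edgeR adjusted p = 0.0217). Leaving out control 1, control 2 or knockout 1 ended its call (0.0693, 0.0965 and 0.0825; edgeR adjusted p between 0.00190 and 0.166 in 16 alternatives). Prkar1a, a regulatory subunit and the most abundant PKA gene by CPM, went from 800 ± 158 to 582 ± 44.9 CPM without a call (-0.46 on the log2 scale, adjusted p by edgeR 0.10). Of 12 anchoring proteins 0 were called by edgeR. An unadjusted p under 0.05 was reached by 4 of them, against 21.6% of all genes tested. Akap8l had the smallest p (log2 fold change -0.47, adjusted p = 0.111). Akap13 was the most abundant by CPM but not per kb (0.27, adjusted p = 0.536). Of the 6 EPAC and RAP1 genes 0 were called and 2 had an unadjusted p under 0.05, also against 21.6%. For Rap1gap, which switches RAP1 off, the log2 difference was 0.54 (adjusted p by edgeR 0.0546), and for Rap1b, the most abundant, -0.18 (0.387).

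On the CREB side, Crem, a CREB relative that includes cAMP-induced repressor forms, fell from 53.6 ± 9.36 to 34.97 ± 1.37 CPM beside a Creb1 level that was not called. Its values were 44.4, 63.1 and 53.2 CPM in controls and 36.5, 34.0 and 34.4 CPM in knockouts (log2 fold change -0.62, edgeR adjusted p = 0.0181). Leaving out control 2, knockout 1 or knockout 2 ended its call (0.120, 0.0597 and 0.0550; edgeR adjusted p between 0.000901 and 0.120 in 16 alternatives). Of the 10 CREB relatives, coactivators and their kinases, Crem included, 5 had an unadjusted p under 0.05, against 21.6% of all genes tested. The remaining 9 were not called by edgeR. The coactivator gene Crtc1 had the smallest p of these (0.46, adjusted p by edgeR 0.0754). The kinase gene Sik3 was the most abundant by CPM but not per kb (0.33, 0.181).

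Among textbook CREB targets 3 of 11 fell and 0 rose, where 3.35% of all genes tested fell and 3.72% rose, and the median log2 fold change was -0.39. Nr4a1, an orphan nuclear receptor induced by cAMP, measured 13.3, 21.9 and 17.7 CPM in controls and 5.82, 9.25 and 6.35 CPM in knockouts (log2 fold change -1.30, edgeR adjusted p = 0.00498). Its relative Nr4a2 measured 12.98, 28.95 and 23.4 CPM in controls and 6.47, 8.80 and 9.53 CPM in knockouts (-1.39, edgeR adjusted p = 0.0105). Both separated the groups. In 15 of 16 alternatives Nr4a1 was called, and the pair of shallow libraries left out together ended that (2.30e-08 to 0.0722). Nr4a2 was called in 15 of 16 as well, all but the one that left out knockout 1 (7.78e-11 to 0.0545). Sst, the hormone of delta cells, fell as well, with 3903 ± 1028 CPM in controls and 2162 ± 256 CPM in knockouts (-0.85 on the log2 scale, adjusted p by edgeR 0.0223). Leaving out control 1, control 2, knockout 1 or knockout 2 ended that call (0.0545, 0.0880, 0.0629 and 0.0751; edgeR adjusted p between 1.33e-06 and 0.164 in 16 alternatives). Of the other 3 delta-cell markers, Rbp4 fell (-0.57 on the log2 scale, adjusted p by edgeR 0.0477), while Hhex (-0.48, 0.134) and Ghsr (0.03, 0.978) were not called. Bdnf, a neurotrophin gene, had the smallest p of the rest (1.02, adjusted p by edgeR 0.177) and the immediate early gene Fos stood at 16.4 ± 7.05 and 7.92 ± 3.64 CPM, with overlap (adjusted p by edgeR 0.18). Of 8 alpha-cell markers 6 had log2 fold changes under 0 and 2 over 0 (median -0.36). Both 2 PP-cell markers were under 0 (median -0.53), and 0 of either list were called. All 12 acinar and all 7 endothelial markers were over 0. The part of delta-cell content in the Sst result was not tested.

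In the promoter table the half-site TGACG was found upstream of 1 of 7 chosen genes that have a sequence, Prkaca, and of 11 of 12 textbook targets, a list of genes known for such sites. The windows of Prkaca (chr8:83972728-83972977, plus strand), Nr4a1 (chr15:101266596-101266845, plus strand) and Nr4a2 (chr2:57124004-57124253, minus strand) carry it and overlap no annotated exon. The first is shown as the sole chosen gene with a half-site, and the others because Nr4a1 and Nr4a2 fell. Windows of Bdnf, Fos, Junb and Per1 also carry it without exon overlap and are not printed. Capitals mark TGACG or its reverse complement CGTCA.
Prkaca: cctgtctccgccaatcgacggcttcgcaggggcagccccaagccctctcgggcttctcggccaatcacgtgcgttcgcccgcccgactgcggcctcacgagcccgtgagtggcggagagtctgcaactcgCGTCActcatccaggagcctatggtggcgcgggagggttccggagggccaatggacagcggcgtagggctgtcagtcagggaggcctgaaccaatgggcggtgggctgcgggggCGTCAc
Nr4a1: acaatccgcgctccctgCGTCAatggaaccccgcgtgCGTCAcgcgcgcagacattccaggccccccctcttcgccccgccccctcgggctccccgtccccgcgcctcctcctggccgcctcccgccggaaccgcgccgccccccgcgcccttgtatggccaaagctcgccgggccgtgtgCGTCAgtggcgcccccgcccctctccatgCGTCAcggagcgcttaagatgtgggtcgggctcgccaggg
Nr4a2: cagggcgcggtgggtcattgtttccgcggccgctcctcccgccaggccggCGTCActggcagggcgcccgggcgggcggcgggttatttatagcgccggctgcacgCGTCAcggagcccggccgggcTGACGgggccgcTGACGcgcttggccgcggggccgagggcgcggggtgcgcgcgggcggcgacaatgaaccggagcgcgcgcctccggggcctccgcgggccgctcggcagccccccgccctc
Prkaca has 2 half-sites, beginning 120 and 6 bases upstream of the start. Nr4a1 and Nr4a2 have 4 each, and none of the 3 windows has the full element TGACGTCA. A full element was found in 0 of 7 chosen genes and in 3 of 12 targets, Dusp1, Scg2 and Sst, of which Sst fell and Dusp1 and Scg2 were not called (0.07 and -0.41 on the log2 scale, adjusted p by edgeR 0.891 and 0.258). The core TAATTA was found in 0 of 7 chosen genes, 1 of 11 further phosphodiesterases and 1 of 7 further PKA genes. The phosphodiesterase is Pde7b, which rose, and 142 bases of its window are annotated exon. The PKA gene was not called. Over all windows 4.84% hold TAATTA.

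**Figure D4:**
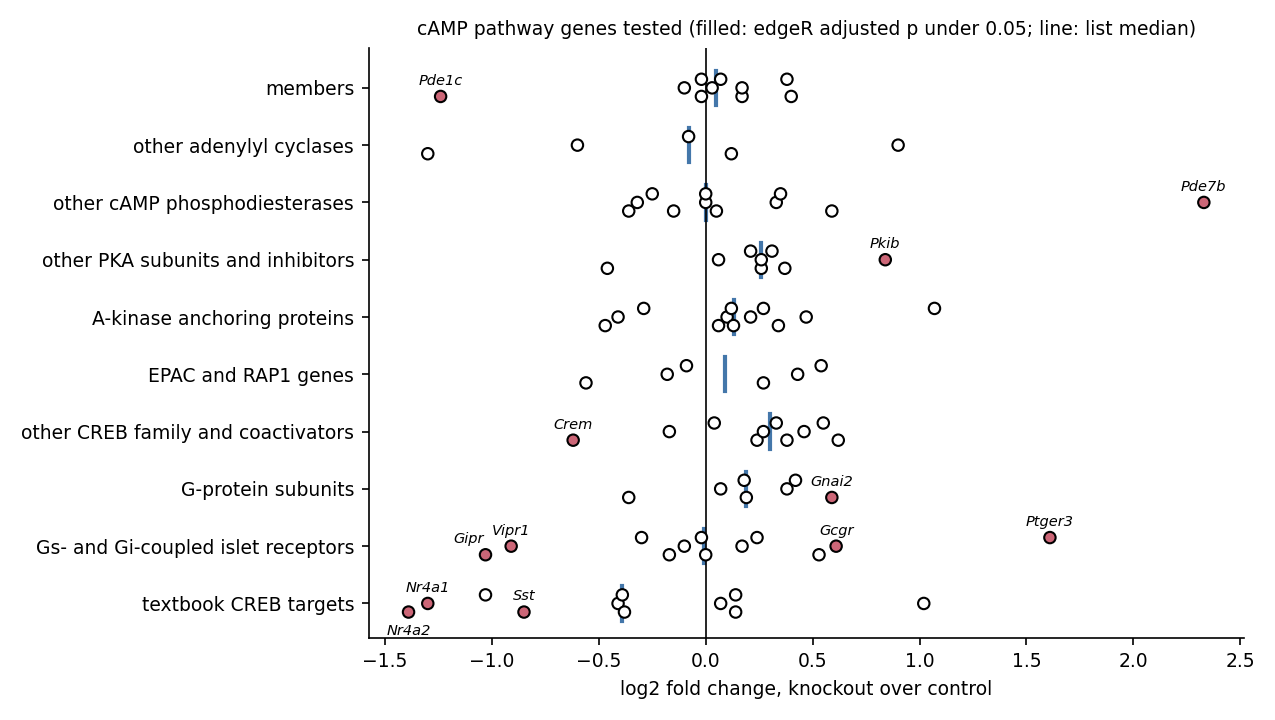
Log2 fold changes, knockout over control, of the 10 chosen genes and of each further list, with called genes filled and named and a blue line at each list's median. The medians lie between -0.39 (CREB targets) and 0.30 (CREB family and coactivators), and Pde7b is the point farthest from 0 at 2.33.

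Upstream of the cyclases, 2 receptor genes rose and 2 fell among 12 tested, where 3.72% of all genes tested rose and 3.35% fell. Gipr, the receptor of the incretin GIP, measured 19.6, 15.6 and 22.4 CPM in controls and 11.5, 6.80 and 10.2 CPM in knockouts (log2 fold change -1.03, edgeR adjusted p = 0.0133). Vipr1, a receptor of vasoactive intestinal peptide, went from 66.5 ± 13.7 to 35.3 ± 8.07 CPM (-0.91, edgeR adjusted p = 0.0122), so 2 receptors that couple to the stimulatory G protein fell. A further receptor of that kind, Gcgr for glucagon, rose, with 16.3 ± 0.686 CPM in controls and 25.1 ± 4.26 CPM in knockouts (0.61, adjusted p by edgeR 0.0315), and Glp1r, the most abundant, was not called (0.53, 0.178). Ptger3, a prostaglandin receptor that couples to inhibitory G proteins, rose, with 3.77 ± 2.02 CPM in controls and 11.6 ± 3.33 CPM in knockouts (1.61, adjusted p by edgeR 0.0447). The inhibitory subunit gene Gnai2 rose, with 465 ± 96.6 CPM in controls and 698 ± 47.6 CPM in knockouts (0.59, adjusted p by edgeR 0.0381), the sole call among 7 G-protein genes. By these counts Gnai2 was the most abundant of them. Gnao1, a further inhibitory subunit gene, came next by p (0.42, adjusted p by edgeR 0.0719).

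Of these receptor and G-protein calls, those of Gcgr, Ptger3 and Gnai2 stood near the threshold. Gipr was called in 14 of 16 alternatives, Vipr1 in 13, Gcgr and Gnai2 in 11 each and Ptger3 in 9. With 1 library left out several calls were lost at log2 fold changes close to those above. Gipr was not called without control 1 (log2 fold change -1.01, adjusted p by edgeR 0.0545; 8.54e-06 to 0.118 over 16 alternatives), and Vipr1 not without control 2 or knockout 1 (-0.91 and -0.79, adjusted p 0.0555 and 0.0579; 3.40e-08 to 0.0988). Gcgr lost its call without control 1, control 2, control 3 or knockout 1 (log2 fold changes 0.48 to 0.64, adjusted p 0.0902, 0.0952, 0.0755 and 0.111; 0.00636 to 0.191). Ptger3 lost it without control 1, knockout 1, knockout 2 or knockout 3 (log2 fold changes 1.40 to 1.81, adjusted p 0.146, 0.111, 0.0906 and 0.0675; 4.47e-09 to 0.236) and with upper-quartile factors (0.0592) or length and GC offsets (0.0929). Gnai2 lost it without control 1, control 2, knockout 1 or knockout 2 (log2 fold changes 0.50 to 0.63, adjusted p 0.157, 0.164, 0.140 and 0.0663; 0.000625 to 0.327). Endothelial markers, which were low, had a summed level of 178 to 203 CPM in controls and 214 to 274 CPM in knockouts. Of these 7 markers 1 was higher, where 3.72% of all genes tested rose, and none was at 0. Of 5 duct markers 1 rose, Cftr, at 0.223 ± 0.120 CPM in controls and 1.48 ± 0.463 CPM in knockouts. Its level was low, with as few as 6 counts in a library. The duct sum of 1701 to 2215 CPM in controls and 944 to 1406 CPM in knockouts followed Spp1 (1343 and 635 CPM, not called), while Krt7 (-0.11 on the log2 scale), Krt19 (0.05) and Sox9 (0.68) did not pass the test. Their part in these results was not tested.

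**Figure D5:**
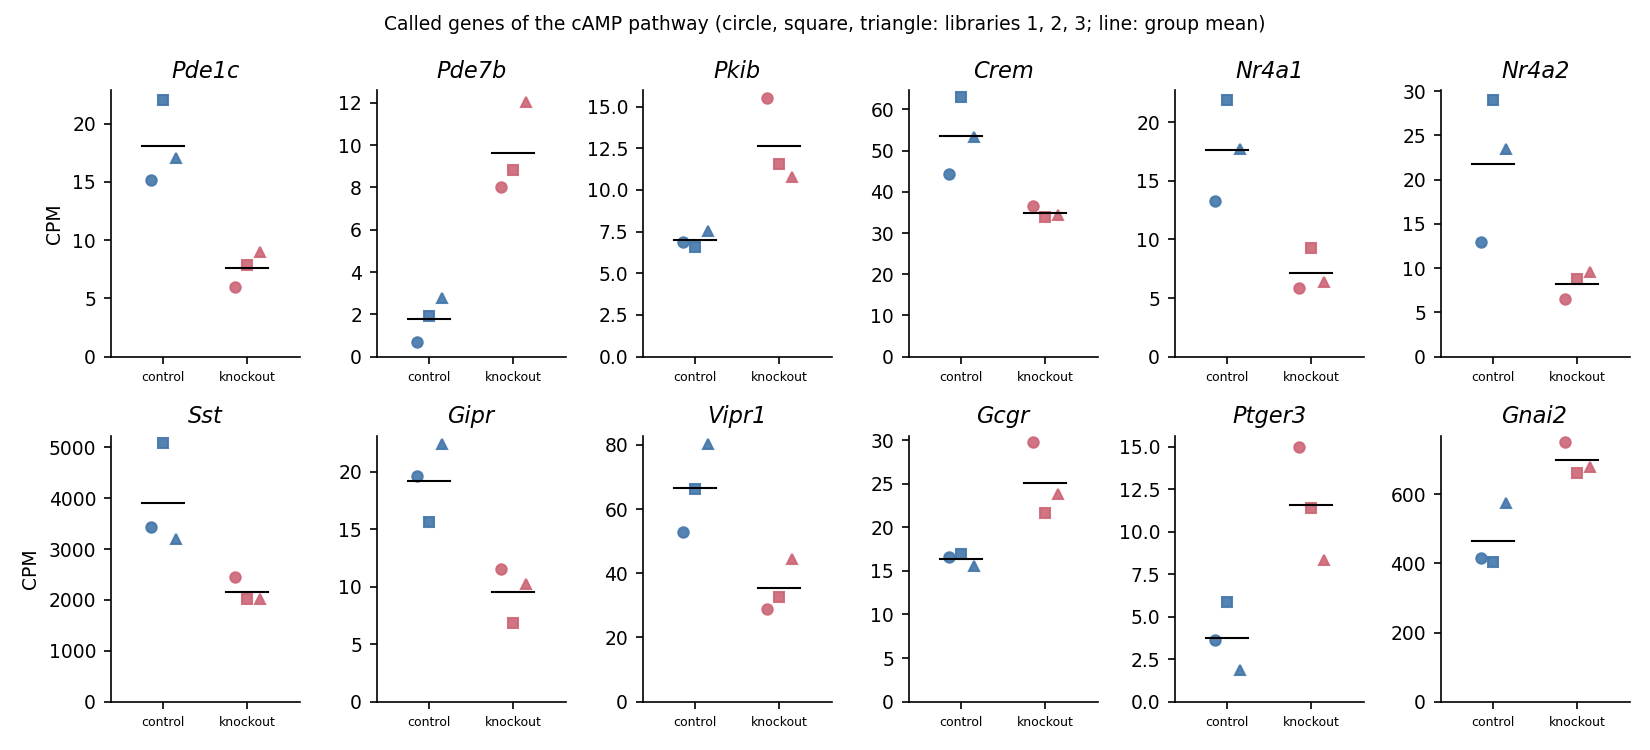
CPM in each library of Pde1c and the 11 further pathway genes called by edgeR, on linear axes from 0, with a black line at each group mean. In every panel the 3 knockout libraries (red) lie entirely above or below the 3 controls (blue). The genes were picked by the test on these same libraries, and 28.0% of all genes tested separated the groups.

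The genes whose profile was most like that of Pde1c were sought by Pearson correlation of log2 CPM over the 6 libraries, among 10800 genes with a mean of at least 5 CPM. Isoc2b (r = 0.9971), Tyk2 (0.9959) and Ttc39aos1 (0.9919) came first. All 3 were lower in the knockouts than in any control, with log2 fold changes of -0.52, -0.39 and -0.85, less than that of Pde1c, and Ttc39aos1 alone was called (edgeR adjusted p = 0.00872, against 0.0570 and 0.119). These correlations describe 6 libraries that differ by group, and many genes reach high values over so few. That the 3 genes separate the groups is no further result, because they were picked for likeness to a gene that does.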

How the data were processed

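The deposited table holds raw whole-number counts per Ensembl gene ID for 6 libraries, which the authors did not normalize. Tools named per the submitters' processing notes are STAR 2.7.3a, featureCounts, Trim Galore 0.6.7 and FastQC 0.11.9, and the build is GRCm39 (mm39). The handling of strand and read pairs and the annotation release were not given in the sources used here. Of the nonzero counts of a library, 62.3% to 73.2% were even, and whether each read pair was counted once is not known. Column names give each library's group and no sample title, and the numbers of control 1 to 3 and knockout 1 to 3 are those of the columns.

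A symbol was found by ID for 52073 of 56980 IDs. Counts were filtered with filterByExpr, scaled by TMM and tested with edgeR 4.0.16 in R 4.3.3 (robust quasi-likelihood test, Benjamini-Hochberg adjustment over 18558 genes, threshold 0.05). SEs and 95% intervals of log2 fold changes derive from this test. Alternatives used DESeq2 1.42.0, limma 3.58.1 (voom), other size factors and filters, an acinar covariate, offsets fitted on length and GC content with mgcv (known for 97.6% of the genes tested), and left-out libraries. Exon lengths come from GENCODE M21 and promoter windows from RefSeq, both on GRCm38, another build than that of the counts. No 2 libraries of a group were alike enough to be the same library deposited again (mean chi-square per gene at least 38.8).

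The 10 genes and all lists were chosen with earlier results of these data known. The text names those genes, Ssbp3, every called gene of the 9 pathway lists (cyclases, phosphodiesterases, PKA, anchoring proteins, EPAC and RAP1, CREB family, G proteins, receptors, CREB targets), each list's gene of smallest p among the others and of highest CPM, and the 3 genes most like the leading one. Adcy4, Fos, Dusp1, Gnas and the 6 untested genes were named after their values were seen.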

Additional observations from a re-analysis of the deposited data

How the results depend on the processing

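Over 16 alternatives, Pde1c stayed lower and called in 15 and the other 9 genes stayed uncalled, except Pde3b in 2. Without a filter, 1222 genes of the whole table rose and 931 fell, with 1 of the 10 genes (Pde3b) higher and 13 other pathway genes higher and 9 lower. DESeq2 gave 1077 higher and 966 lower genes in the whole table and 10 higher and 8 lower pathway genes. An acinar covariate gave 1108 and 974, 1 of the 10 genes higher (Pde3b), and 11 higher and 6 lower pathway genes. Without control 1 and knockout 1, 76 genes rose and 48 fell in the whole table, 0 of the 10 genes fell, and 1 pathway gene rose and 1 fell. Upper-quartile factors gave 613 higher and 829 lower genes, against 691 and 621. Leaving out each library in turn gave 295 to 719 higher and 224 to 590 lower genes in the whole table, with the fewest without control 2, and 1 to 7 higher and 2 to 7 lower pathway genes. The cause of these shifts was not tested. The cyclase to phosphodiesterase log2 ratio differed by -0.07 per kb, by 0.00 over the chosen genes alone and by -0.06 to 0.11 with each library left out. No paired analysis was possible because the column names do not tie a library to a labelled animal, and the sample titles share fewer than 2 numbers between groups. Adcy3, Adcy5, Adcy8 and Pde8b had low counts in the shallow libraries and also varied between deep ones. In a library 3 counts stand for 0.0135 to 0.194 CPM, a floor that covers counting error only.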

Other observations

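The 6 pathway genes that did not pass the filter on low counts were Adcy10, Pde2a, Pde11a, Akap2, Sstr5 and Pck1. Pde2a had no count in any control and at most 0.0663 CPM in a knockout. Of its annotated exon bases, 64.3% lie over Gm45837 on the same strand, and for Akap2 84.4% lie over Pakap, so counts of these 2 genes are uncertain. Gnas, which encodes the stimulatory G-protein subunit, had 22.0% of its exon bases over genes on the opposite strand. Without a stated strand setting its counts, and its place among the G-protein genes by level, are uncertain too. Gnas stood at 85.2 ± 7.82 CPM in controls and 66.6 ± 9.78 CPM in knockouts (-0.36 on the log2 scale, adjusted p by edgeR 0.124).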
